A study of Mus musculus with 4 samples.

Results

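The constitutive proteasome subunit genes were taken from a mouse array study as every probe set annotated to a single gene named Psma1 to Psma7, Psmb1 to Psmb7, Psmc1 to Psmc6 or Psmd followed by a number. The probe set with the highest mean over the 4 arrays stood for each gene. This gave 34 of the 18193 genes with a singly annotated probe set. They were 7 alpha and 7 beta genes of the core particle, and 6 Psmc and 14 Psmd genes of the regulatory particle. The arrays carried total RNA labelled as that of mouse glomerular mesangial cells, the contractile support cells between the kidney's filtering capillaries. In 2 arrays the cells had been kept in low glucose, and in 2 they belonged to a group named for TGF-beta1 (transforming growth factor), which promotes scarring of the glomerulus. The glucose level of the TGF-beta1 cells, the dose, the time and the source of the cultures were not given, so a difference in glucose and an effect of TGF-beta1 cannot be told apart. The strain is not given either. The labels do not tie the arrays to different cultures, so the p-values reflect how far these 4 hybridisations varied, and that variation may be technical.

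The proteasome degrades proteins that carry ubiquitin chains. Its core particle is a barrel of stacked rings: the outer alpha rings gate the entrance, and the inner beta rings hold the catalytic sites. The regulatory particle caps the barrel. Its base carries a ring of ATPases, the Psmc proteins, that unfold substrates and push them into the core, and its lid removes the ubiquitin chains. The Psmd genes do not all encode parts of the finished particle: Psmd5, Psmd9 and Psmd10 encode chaperones that help to assemble the base, so the name of the set does not hold for these 3. In many cells the subunit genes are transcribed in concert under the factor encoded by Nfe2l1, and interferon replaces the catalytic beta subunits by the inducible Psmb8, Psmb9 and Psmb10.

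The intensity of each probe set is given as log2(intensity + 46.88), quantile normalised between the arrays, and a difference is TGF-beta1 minus low glucose on that scale. The 4 arrays fell into 2 technical pairs, found from 18 spike-in probe sets: low glucose replicate 1 with TGF-beta1 replicate 2 (array pair 1), and low glucose replicate 2 with TGF-beta1 replicate 1 (array pair 2). Genes were fitted with limma, with and without this pair as a block, over 13565 genes. A value after ± is the standard error of a difference in the blocked fit, with n = 2 arrays a group. That fit takes the spread of a gene from genes of like brightness, so neither this error nor its p-value measures the gene's own variation. "Rose" and "fell" are used here of genes with a Benjamini-Hochberg adjusted p under 0.05 in the blocked limma fit. The fit without it called 0 of all genes (271, or 2% of them, had an unadjusted p under 0.05, and 0 of the 34 members did). With the prior degrees of freedom of that fit, 2.79, the blocked fit called 0 genes as well (16.5% of all genes and 2 members had an unadjusted p under 0.05). The number of arrays limits the precision. Of 8 annotated mesangial and pericyte markers 7 passed the filter on low values, which lay at 6.85, Gata3 being the exception. Several were close to that filter: the highest value on any array was 7.03 for Itga8, 7.24 for Pdgfrb and 7.35 for Pdgfra. This maximum was 7.65 for Des, 7.75 for Acta2, 7.89 for Tbx18 and 9.07 for Tagln. Tagln rose by 0.88 and Acta2 by 0.32, and the other 5 were not called. Of 7 tubule epithelial markers 6 passed as well, all but Cdh1. Among them Cdh16 and Lrp2 fell by 0.31 and 0.29, and Krt18 and Krt8 rose by 0.54 and 0.40. Podocyte markers passed in 3 of 4 annotated cases. Of these Synpo fell by 0.58, Podxl rose by 0.23 and Nphs1 was not called. Leukocyte and macrophage markers passed in 4 of 5, Ptprc being the exception. Lyz2, Adgre1 and Cd68 were close to the filter, with 6.98, 7.16 and 7.37 as the highest value on any array, while Csf1r reached 10.69. Of 4 endothelial markers 1 passed (Kdr, at most 7.09 on any array), and Pecam1, Cdh5 and Tek did not. The summed intensity of the tubule markers above the filter was 6174 to 7283 over the arrays, against 811 to 1234 for the mesangial ones. The brightest tubule markers were Krt18 and Cdh16, with deposited intensities of 2602 to 4118 and 1495 to 2014, while Krt8 was at 72 to 125.

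The proteasome subunit genes stood close together in both groups, with a small offset upwards in TGF-beta1. The median difference over the 34 members was 0.06, a change of 4.05%, against 0.00 over all genes tested (0.04 and 0.07 within array pairs 1 and 2). The difference was above 0 in 28 of 34 members (82.4%), compared with 49.9% of all genes. It was above 0 within both pairs in 19 members (55.9%) and below 0 within both in 3, against 33.9% and 34.4% of all genes. Only Psmd7 and Psmd8, both of the lid, rose, and 0 members fell. This is 2 of 34, where 7.89% of all genes rose and 10.6% fell. All 34 members passed the filter, which used the mean over all arrays. Leaving out 1 array unbalances the pairs: the median of the members was then 0.00 without the first low glucose array, 0.10 without the second, -0.01 without the first TGF-beta1 array and 0.12 without the second, with 17, 29, 15 and 30 members above 0 and 0 called in each case. In RNA of whole cultures, fewer cells of a type and less RNA per cell cannot be told apart.

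**Figure D1:**
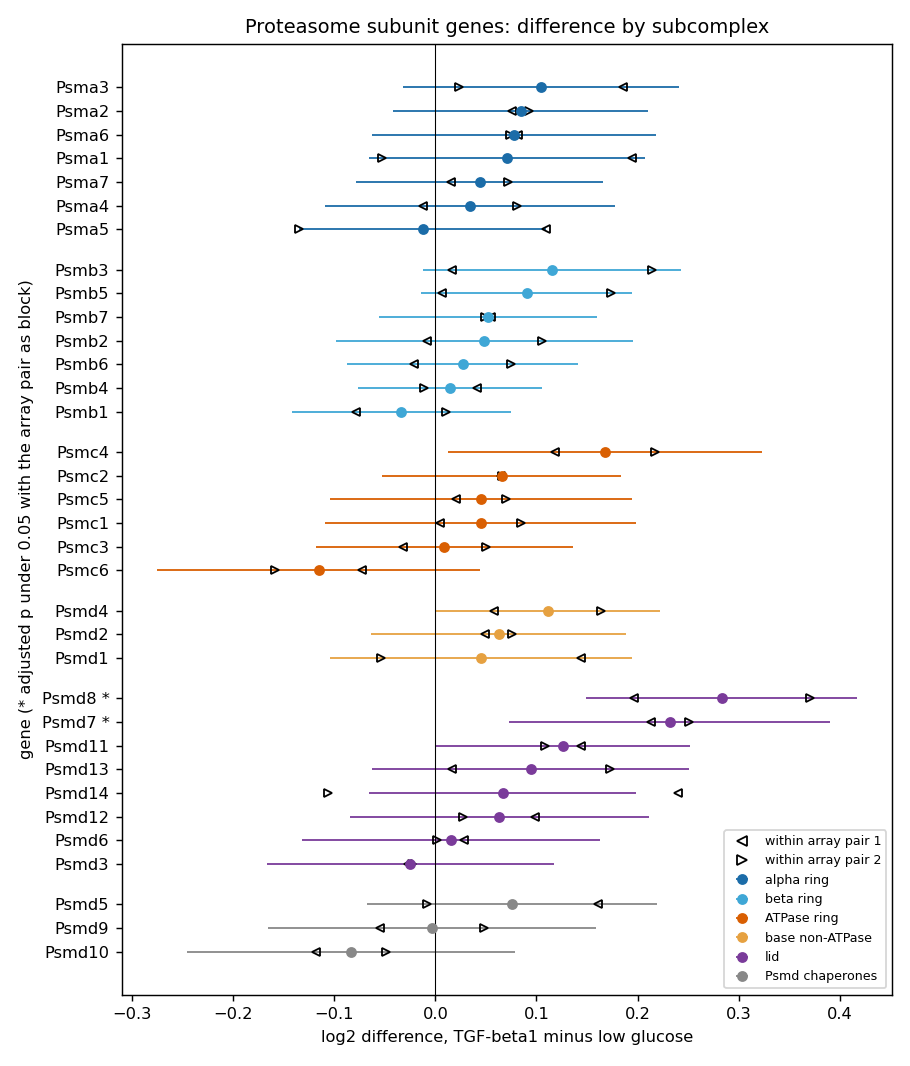
Log2 difference (TGF-beta1 minus low glucose, horizontal axis) of each of the 34 genes, grouped by subcomplex, as a filled point with its 95% interval from the blocked fit; open triangles are the differences within each of the 2 pairs. Most points lie between 0 and 0.13, and the starred Psmd8 and Psmd7 lie furthest to the right, at 0.28 and 0.23.

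Psmd8 encodes a lid subunit that joins last when the lid is assembled. Its deposited intensity was 2086 and 2188 on the low glucose arrays and 2836 and 2415 on the TGF-beta1 arrays, replicates 1 and 2 in each case. On the normalised log2 scale these were 11.03 and 11.17 against 11.54 and 11.22. Both TGF-beta1 arrays were thus above both low glucose arrays. The difference was 0.28 ± 0.07 (21.7% higher; adjusted p = 0.000509 with limma and the block), and 0.20 and 0.37 within the pairs. Without the block its SE was 0.15 and its unadjusted p = 0.124 with limma, the smallest of the 34 members. With 1 array left out the difference ranged from 0.13 (without TGF-beta1 replicate 1) to 0.44 (without TGF-beta1 replicate 2).

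Psmd7 encodes the lid subunit that pairs with Psmd14, the deubiquitinase of the lid. Its deposited intensity was 936 and 1139 in low glucose, against 1365 and 1091 with TGF-beta1. The normalised values were 9.92 and 10.23 against 10.48 and 10.13, so the groups overlapped, while the difference was above 0 within both pairs (0.21 and 0.25). The difference was 0.23 ± 0.08 (17.4% higher; adjusted p = 0.0273 with limma and the block). The call ended when arrays were centred on their medians (0.21, adjusted p = 0.0558) and when all kept probe sets of a gene were averaged (0.08, adjusted p = 0.316). Its 2 other probe sets were at 0.05 and -0.04, with mean values of 7.02 and 6.88 beside a filter limit of 6.85. With 1 array left out Psmd7 was at 0.07 (low glucose replicate 1), 0.39 (low glucose replicate 2), 0.06 (TGF-beta1 replicate 1) and 0.41 (TGF-beta1 replicate 2).

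The other 6 lid genes did not pass. Psmd14 was at 0.07 ± 0.07, from 0.24 within pair 1 and -0.11 within pair 2, so that its arrays did not agree on a direction (95% interval -0.07 to 0.20). Psmd11, a scaffold subunit of the lid, was at 0.13 ± 0.06, with 0.14 and 0.11 within the pairs. Its 6 other kept probe sets ranged from -0.01 to 0.16. Psmd3, another scaffold subunit, had the lowest difference of the lid, with 11.15 and 10.81 in low glucose against 10.78 and 11.12 in TGF-beta1, a difference of -0.02 ± 0.07. These values follow the array pairs and not the groups.

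**Figure D2:**
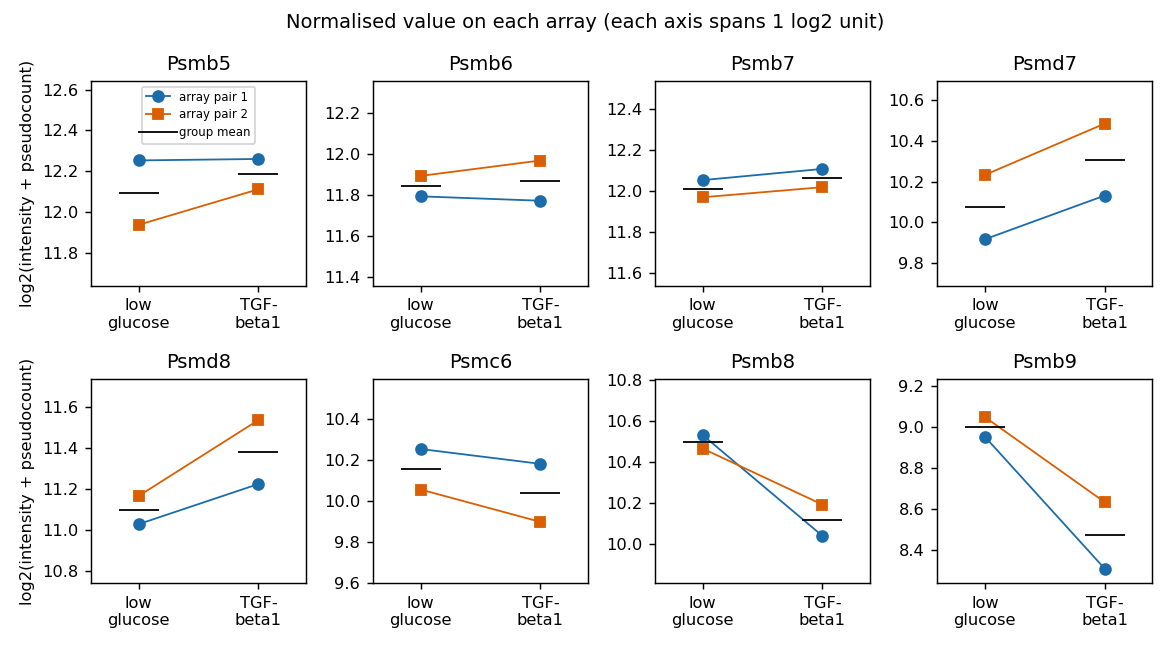
Normalised log2(intensity + pseudocount) on each array for 8 genes, in low glucose (left) and TGF-beta1 (right), with lines joining the arrays of pair 1 (circles) and pair 2 (squares) and black bars for the group means. Psmd7 and Psmd8 go up along both lines, Psmb8 and Psmb9 go down along both, and the catalytic Psmb5, Psmb6 and Psmb7 stay within 0.2 along either line.

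The 3 catalytic subunits of the core particle did not pass. Psmb5, which carries the chymotrypsin-like activity, had values of 12.25 and 11.94 in low glucose, against 12.11 and 12.26 with TGF-beta1. Its difference was 0.09 ± 0.05, with a 95% interval of -0.01 to 0.19 with the block and -0.28 to 0.46 without it. Psmb7, the trypsin-like subunit, had 12.05 and 11.97 against 12.02 and 12.11, a difference of 0.05 ± 0.06 (-0.06 to 0.16 with the block, -0.20 to 0.30 without). Psmb6, the caspase-like subunit, had 11.79 and 11.89 against 11.97 and 11.77, a difference of 0.03 ± 0.06 (-0.09 to 0.14 with the block, -0.28 to 0.33 without). The groups overlapped in all 3. These intervals limit a change of the catalytic genes, within the assumption of the blocked fit that genes of like brightness vary alike, and do not show that there was none.

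The promoters of 28 members were found in the RefSeq table of mouse promoters (GRCm38.p6), and Psmb1, Psmb2, Psmb7, Psmc3, Psmd3 and Psmd7 were not matched. The last 120 bases before the start are shown for Psmd8, the member with the largest difference, and for the catalytic Psmb5 and Psmb6, which hold the core of an antioxidant response element, the kind of site that the Nfe2l1 factor binds. Capitals mark that core, TGACNNNGC, searched on both strands. Psmd8 lies on the minus strand at chr7:29180674-29180793, Psmb5 on the minus strand at chr14:54617996-54618115 and Psmb6 on the plus strand at chr11:70525237-70525356.
Psmd8: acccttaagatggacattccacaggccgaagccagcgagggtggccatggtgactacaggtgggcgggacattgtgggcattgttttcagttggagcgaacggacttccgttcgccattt
Psmb5: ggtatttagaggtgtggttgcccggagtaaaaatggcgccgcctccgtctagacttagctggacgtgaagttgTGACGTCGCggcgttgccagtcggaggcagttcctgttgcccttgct
Psmb6: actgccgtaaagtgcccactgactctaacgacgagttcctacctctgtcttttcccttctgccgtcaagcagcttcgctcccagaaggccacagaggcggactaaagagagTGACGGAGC
In the 250 bases before the start, TGACNNNGC was present in 5 of the 28 promoters (17.9%: Psmb5, Psmb6, Psmc6, Psmd9 and Psmd12) and in 13.9% of the promoters of all tested genes that were matched. The CCAAT box, which does not overlap that core, was present in 11 (39.3%) against 39.9%. A match describes the letters and is not a binding site, and the 5 members with the core had differences from -0.12 (Psmc6) to 0.09 (Psmb5).

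The 4 remaining beta genes are structural parts of the ring, and none passed. Psmb3 was the highest, with 11.39 and 11.38 in low glucose, against 11.59 and 11.41 with TGF-beta1, so that the groups did not overlap, and its difference was 0.12 ± 0.07. Its other probe set gave 0.10. Psmb1 was the lowest at -0.03 ± 0.06, with 12.04 and 12.05 against 12.06 and 11.96. Its other kept probe sets gave 0.15 and -0.21, so they did not share a direction. Psmb4 had 12.51 and 12.62 against 12.61 and 12.55, a difference of 0.01 ± 0.05, and its other probe set gave -0.04. Psmb2 was at 0.05 ± 0.07. In all, both TGF-beta1 arrays lay above both low glucose arrays in 5 of 34 members (Psmb3, Psmc4, Psmd4, Psmd8 and Psmd13) and below them in 0, beside 9.83% and 11.1% of all genes.

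The alpha ring genes spanned -0.01 to 0.10, with a median of 0.07, and 0 of 7 passed. Psma3 was highest at 0.10 ± 0.07, from 10.86 and 11.36 in low glucose, against 11.38 and 11.05 with TGF-beta1. Psma2 followed at 0.08 ± 0.06, with 11.37 and 11.52 against 11.62 and 11.44, and was above 0 within both pairs (0.08 and 0.09). Psma4 (10.83 and 10.97 against 11.05 and 10.82) was at 0.03 ± 0.07. Psma5 (11.43 and 11.78 against 11.64 and 11.54) was at -0.01 ± 0.06, and its other probe sets gave 0.04 and -0.13. All 7 alpha genes had higher values on the arrays of pair 2 than on those of pair 1, by a median of 0.23, and all 7 differed more between the pairs than between the groups. Of the 13565 genes tested, 7022 were higher in pair 2 and 10329 differed more between the pairs.

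Among the ATPases of the base, 0 of 6 passed, and the median was 0.04. Psmc4 was highest at 0.17 ± 0.08 (12.3% higher; adjusted p = 0.129 with limma and the block). Its values were 10.31 and 10.36 in low glucose, against 10.58 and 10.43 with TGF-beta1, which did not overlap, and its other probe set gave 0.07. Psmc2 was at 0.07 ± 0.06, with 11.48 and 11.91 against 11.97 and 11.55. Psmc3 was at 0.01 ± 0.06, with 11.45 and 11.47 against 11.52 and 11.41. Psmc6 was the lowest of all 34 members at -0.12 ± 0.08, with 10.25 and 10.06 against 9.90 and 10.18 (-0.07 and -0.16 within the pairs). It did not pass on its brightest probe set (adjusted p = 0.361), but with all kept probe sets averaged it was at -0.21 and was called lower (adjusted p = 0.0153 with limma and the block), its other probe set being at -0.31.

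The base also holds Psmd4, a receptor for ubiquitin chains, and the large scaffold subunits Psmd1 and Psmd2. Psmd4 was at 0.11 ± 0.06 and its other probe sets at 0.11 and 0.20, all 3 in the same direction. Psmd2 was at 0.06 ± 0.06 and Psmd1 at 0.05 ± 0.08. Of the assembly chaperones, Psmd10 (gankyrin) was lowest at -0.08 ± 0.08, with 9.39 and 9.94 in low glucose against 9.89 and 9.27 in TGF-beta1. It had the largest gap between array pairs of any member, 0.58. Psmd9 was at -0.003 ± 0.08 and Psmd5 at 0.08 ± 0.07.

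Core and regulatory particle did not separate. The median difference was 0.050 over the 14 core genes and 0.063 over the 20 regulatory genes, a gap of -0.013 that was -0.025 within array pair 1 and 0.015 within array pair 2. The gap was 0.012 without the second low glucose array and 0.003 without the second TGF-beta1 array, and below 0 without either of the others. Without the 3 chaperones the regulatory median was 0.063 and the gap -0.013. The core genes were the more uniform: they spanned -0.03 to 0.12 (SD 0.043 over genes), and the regulatory genes spanned -0.12 to 0.28 (SD 0.094). The standard errors of the core genes were lower as well (median 0.063 in the blocked fit, against 0.075). In that fit the error follows the brightness of a gene, and the core genes were brighter, so it does not measure their own variation. The part of these errors in the spread over genes was not tested. The array medians of the core genes were 11.41 and 11.62 in low glucose, against 11.63 and 11.45 with TGF-beta1, and those of the regulatory genes 10.67 and 10.86 against 10.83 and 10.69, in that replicate order. Most genes of both particles differed more between the array pairs than between the groups, 12 of 14 core and 15 of 20 regulatory genes. The same held for 10329 of the 13565 genes tested.

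**Figure D3:**
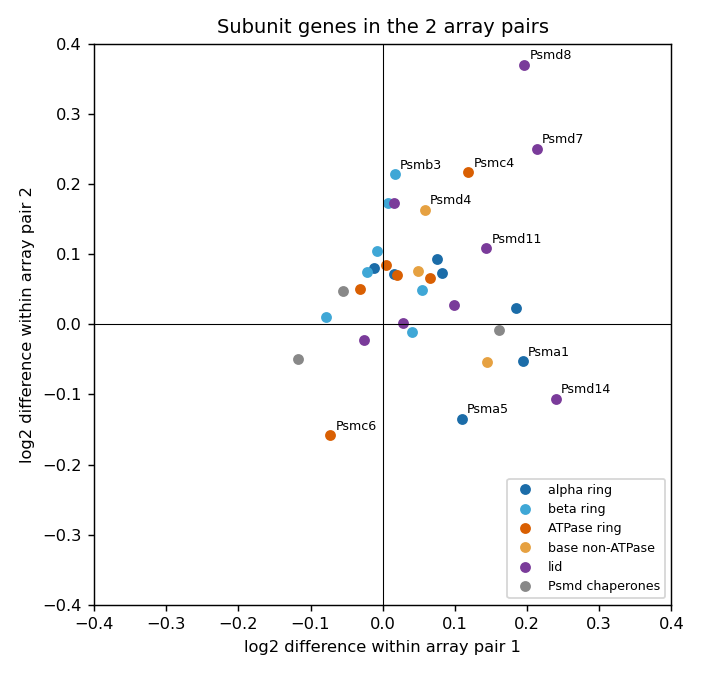
Difference within array pair 1 (horizontal) against that within array pair 2 (vertical) for the 34 genes, in log2 units, coloured by subcomplex. Psmd8, Psmd7 and Psmc4 lie well inside the upper right quadrant and Psmc6, Psmd3 and Psmd10 lie in the lower left, while 12 genes have opposite signs in the 2 pairs.

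The 2 array pairs share no array, so each gives its own reading of the members. Across the 34 genes the within-pair differences correlated at r = 0.15, against r = 0.71 over all genes. This is a description only, since genes of an array share its depth and scaling. The 2 correlations also cover unlike ranges: the SD of the difference over genes was 0.076 for the members and 0.175 for all genes. The signs were opposite in 12 of 34 members and in 4283 of the 13565 genes tested. The median absolute difference of a member was 0.06 between the groups and 0.17 between the array pairs. Over all genes tested these medians were 0.09 and 0.24. The difference between the pairs was the larger in 27 of 34 members and in 10329 of all genes, so this was not particular to the members. The log2 ratio of the 3-prime to the 5-prime actin control, a sign of RNA quality, was 0.24 and 0.60 in low glucose, against 0.40 and 0.24 with TGF-beta1, higher in both arrays of pair 2. The same ratio of the Gapdh control was -0.03 and -0.05 in low glucose, against -0.08 and 0.005 with TGF-beta1, lower in both arrays of pair 2. The part of RNA quality in the differences between pairs was not tested.

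All 3 tested genes of the inducible proteasome were lower with TGF-beta1, and 2 of them fell, where 10.6% of all genes fell. Psmb9 fell by 0.53 ± 0.07 (1.44-fold; adjusted p = 8.49e-11 with limma and the block), from 8.95 and 9.05 in low glucose to 8.63 and 8.31 in TGF-beta1, and by 0.64 and 0.42 within pairs 1 and 2. Psmb8, which takes the place of Psmb5, fell by 0.38 ± 0.08 (1.30-fold; adjusted p = 3.7e-05), from 10.53 and 10.46 to 10.19 and 10.04. In both genes the TGF-beta1 arrays were below the low glucose arrays. Psmb10 was at -0.14 ± 0.08 (9.43 and 9.41 against 9.34 and 9.22) and did not pass. Psmb11 of the thymus and Psma8 of the testis did not reach the filter. The fit without the block gave Psmb8 and Psmb9 unadjusted p-values of 0.0394 and 0.0421 with limma, and neither passed adjustment. The summed intensity of the 4 leukocyte and macrophage markers above the filter was 1574 to 1840 in low glucose, against 1255 to 1498 with TGF-beta1, most of it from Csf1r, which fell by 0.38. The other 3, all close to the filter of 6.85, did not pass and did not share that direction: Cd68 was at 0.14, Adgre1 at 0.06 and Lyz2 at -0.03. Ptprc did not reach the filter. Whether leukocytes or macrophages were present, and their part in the lower inducible subunits, was not tested.

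**Figure D4:**
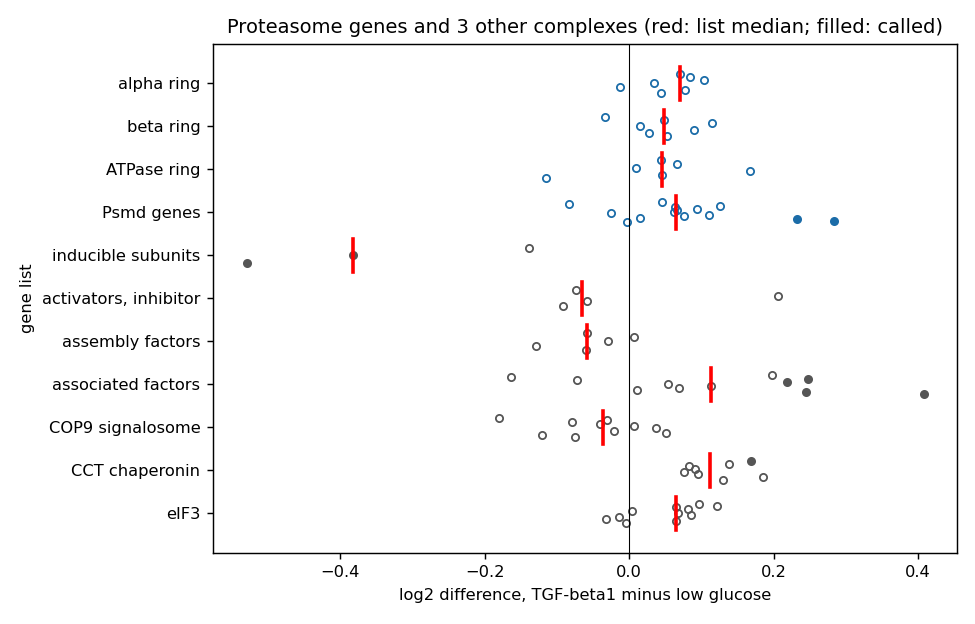
Log2 difference (TGF-beta1 minus low glucose) of each gene in the 4 groups of proteasome subunit genes (blue), 4 lists of other proteasome genes and 3 other complexes (grey), with list medians in red and filled points for genes called in the blocked fit. The 4 subunit groups centre between 0.04 and 0.07, and the inducible subunits centre at -0.38.

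Other genes of the pathway were taken from lists by function. Among 11 tested subunits, shuttles and deubiquitinases associated with the proteasome, 4 rose and 0 fell, with a median of 0.11. Over all genes 7.89% rose and 10.6% fell in the same blocked fit, and the fit without the block called 0 genes. Zfand5, a zinc finger protein that activates the proteasome, rose by 0.41 ± 0.08, from 10.29 and 10.30 to 10.71 and 10.70. Its 5 other probe sets ranged from -0.08 to 0.40, and 10 of 11 settings of the blocked fit called it. The settings counted here and below leave out the blocked fit with 2.79 prior degrees of freedom, which called 0 genes. Rad23b, which carries ubiquitinated proteins to the proteasome, rose by 0.25 ± 0.08, but its other probe sets were at 0.02 and 0.13, and 9 of 11 settings called it. Usp14, a deubiquitinase bound to the base, rose by 0.25 ± 0.08 in 9 of 11 settings, with 0.26, 0.10 and -0.01 on its other probe sets. Txnl1, a thioredoxin-like partner of the regulatory particle, rose by 0.22 ± 0.08, with 0.24 and -0.10 on its other probe sets. Without 1 array Txnl1 ranged from -0.08 (the first low glucose array left out) to 0.52 (the second left out), while Zfand5 ranged from 0.40 to 0.41. Sem1, the small lid subunit outside the naming rule, was at -0.07 ± 0.06.

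Of the activators and the inhibitor 0 of 4 passed: Psme3 was at 0.21 ± 0.08 (adjusted p = 0.0618 with limma and the block), Psme1 at -0.07 ± 0.07, Psme4 at -0.06 ± 0.08 and the inhibitor Psmf1 at -0.09 ± 0.08. Of the 5 tested assembly factors of the core, Pomp and Psmg1 to Psmg4, 0 passed, and they ranged from -0.13 to 0.01. Of 4 tested genes of the segregase p97 (Vcp) and its cofactors 0 passed: Nploc4 was at 0.08, Ufd1 at 0.04, Vcp at 0.01 and Nsfl1c at -0.03. Among 5 tested regulators, Nfe2l1 was at 0.08 ± 0.08, Nfe2l2 at 0.03 ± 0.08, Nfe2l3 at 0.07 ± 0.07 and Stat3 at 0.13 ± 0.08. Ngly1, the glycanase that trims the Nfe2l1 protein before it is activated, fell by 0.21 ± 0.06 (adjusted p = 0.00776 with limma and the block), from 7.72 and 8.30 to 8.08 and 7.51. Its groups overlapped, and the fall was seen within the pairs (-0.21 and -0.22). Without 1 array Ngly1 ranged from -0.50 (the first low glucose array left out) to 0.07 (the second left out).

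Other complexes of many subunits gave a scale for the small offset of the proteasome. The CCT chaperonin, a folding ring of the cytosol, had a median of 0.11 over 8 genes, all above 0 within both pairs. Of these 1 rose, beside 7.89% of all genes (Cct2, 0.17 ± 0.06, called in 7 of 10 settings). The translation factor eIF3 had a median of 0.07 over 11 genes, with 0 called, and the COP9 signalosome, whose architecture resembles that of the lid, a median of -0.04 over 10 genes, with 0 called. The proteasome median of 0.06 lay between those of the chaperonin and the signalosome and near that of eIF3. These medians are descriptions over genes, and no difference between the complexes was tested.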

How the data were processed

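The authors deposited 1 linear intensity per probe set and array for 4 arrays. The sources used here do not give the probe summary or the scaling behind these values. Groups came from the titles. Gene symbols came from the platform annotation: 34945 of 45101 probe sets had 1 symbol, 932 several and 9160 none, beside 64 control probe sets. From the deposited intensities, log2(intensity + 46.88) was computed (the 25th percentile of all values) and quantile normalised. Probe sets under the 40th percentile of the mean were left out, and the probe set of highest mean stood for each gene (the same by deposited intensity in all 34 members). Two-sided tests came from limma (lmFit, then eBayes with its trend option), and p-values were adjusted by Benjamini-Hochberg over 13565 genes (limma 3.58.1, R 4.3.3, Python 3.11.15, matplotlib 3.10.9).

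The array pairs came from 18 hybridisation spike-in probe sets (mean absolute log2 difference 0.0449 and 0.0847 within pairs, at least 0.855 between them); the arrays of pair 1 also share a repeat tag in their titles, whose meaning is not given. With the block, 1 residual degree of freedom is left, and the fit takes each gene's spread from genes of its brightness. The code of both fits was tested on simulated data. The members, lists and tests were chosen with earlier results of these data known. Values on each array are printed for the catalytic genes and for the 2 highest and 2 lowest members of each class; other members, genes such as Sem1 and other probe sets named were chosen after their values were seen. Alternatives were the pseudocount, scaling, filter, choice of probe set, trend, prior, block and leaving out each array.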

Additional observations from a re-analysis of the deposited data

How the results depend on the processing

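The 2 calls among the members, Psmd7 and Psmd8, held with the other pseudocounts, a floor, the authors' scaling, no filter or a stricter one, unique probe sets (28 members left) and no intensity trend. With median centring 1 was called (Psmd8), and with all kept probe sets averaged 2 were (Psmc6 and Psmd8). With no replicate block 0 members were called, where the array pair as a replicate block gave 2, and 0 were called in the blocked fit with the prior degrees of freedom of the fit without the block, 2.79. The repeat tags do not state a pairing. Without 1 array, 0 members were called in each case, the median of all members ranged from -0.0063 to 0.124, that of the core from -0.0275 to 0.124 and that of the regulatory particle from 0.0120 to 0.121. The fits without 1 array hold no block, and the cause of their range was not tested. The regulatory median was 0.0537 and 0.0580 within pairs 1 and 2, 0.0384 with median centring (as was that of all members), 0.0542 with all kept probe sets averaged and 0.0519 with unique probe sets. Median centring moved the median of all genes to -0.02. Core minus regulatory kept its sign with the other pseudocounts, scalings, filters and probe sets, and changed it within pair 2 and without the second array of either group. With 2 arrays a group, differences of the size seen in most members could not be told from the spread between arrays.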

Other observations

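Psmf1, which encodes an inhibitor of the core particle, differed little between the groups (-0.09) but by 1.01 between the array pairs on its brightest probe set, with values of 10.59 and 10.51 in pair 1 and 9.59 and 9.49 in pair 2. Its 3 other kept probe sets differed between the pairs in the opposite direction, by 0.33, 0.25 and 0.21, while all 4 probe sets were lower in TGF-beta1, at -0.09, -0.12, -0.16 and -0.11. Over the 29 kept probe sets of the subunit genes that did not stand for their gene, 21 had the sign of the probe set that did and 8 the opposite one.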
